A study of Homo sapiens with 6 samples.

Results

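The solute carriers are the genes whose symbol starts with SLC followed by a digit, and 33 of the 1705 genes in the deposited table carry such a symbol. The rule reads the symbol and no measured value, and the members are grouped here by the substrate of their family. RNA from the human lung adenocarcinoma line PC9, which has an EGFR exon 19 deletion, was compared with RNA from PC9-GR, a derivative of it resistant to the EGFR kinase inhibitor gefitinib. Each line gave 3 libraries from independent cultures in serum-containing RPMI-1640 medium. PC9-GR had been selected with gefitinib from 0.5 to 10 µM and was kept at 10 µM, and it grew for 7 days without the drug before extraction, so neither group was under gefitinib when RNA was taken. PC9-GR is 1 derived line, the labels do not say whether it is a clone, and drug selection cannot be told apart from other differences between the lines such as time in culture.

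Solute carriers are membrane proteins that move nutrients, ions, metals and metabolites across the plasma membrane or the membranes of organelles, either down a gradient or coupled to sodium, protons or an exchanged solute. Cells depend on them for glucose, amino acids, phosphate and trace metals, and several also carry drugs. Many families hold members that overlap in substrate, and some amino acid carriers reach the surface only as a light chain bound to a heavy chain. A symbol marks a shared naming system and not a shared sequence. The group here includes a pseudogene (SLC22A20, named SLC22A20P and typed as a transcribed unitary pseudogene in GENCODE 29) and SLC22A18AS, an antisense-named gene that is no transporter.

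Of the 33 genes, 20 had a higher and 13 a lower mean level in PC9-GR. A filter of at least 1 FPKM (a fragment count scaled to transcript length and library size) in at least 3 libraries passed 25 of them, and limma at adjusted p under 0.05 called 13 of these higher and 12 lower. The same call was made for 48.4% of the 1207 tested genes of the table in the higher and 51.3% in the lower direction, so the members' split was near that of the table. The table holds only genes that the authors had selected as changed in these libraries, and 99.7% of tested genes were called. A call is therefore no independent evidence, and the values below are mainly a description of sizes and levels. The 3 PC9 and the 3 PC9-GR libraries did not overlap for any of the 33 genes, against 94.8% of the listed genes. Among tested genes the median absolute log2 difference was 1.11 for the members and 1.13 for the table. The signed median was 0.70 for the members and -0.63 for the table. With calls split so evenly, the sign of each median only follows that split. No shift of the members against the table is read from it. Of the tested members, 4 reached 1 FPKM only in PC9-GR and 3 only in PC9, and these could pass the filter only by differing. Among the 4 were SLC7A8, SLC47A2 and SLC5A11, and the 3 were SLC1A1, SLC15A1 and SLC6A2. Sequencing depth is unknown, because the table gives FPKM and no counts.

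**Figure D1:**
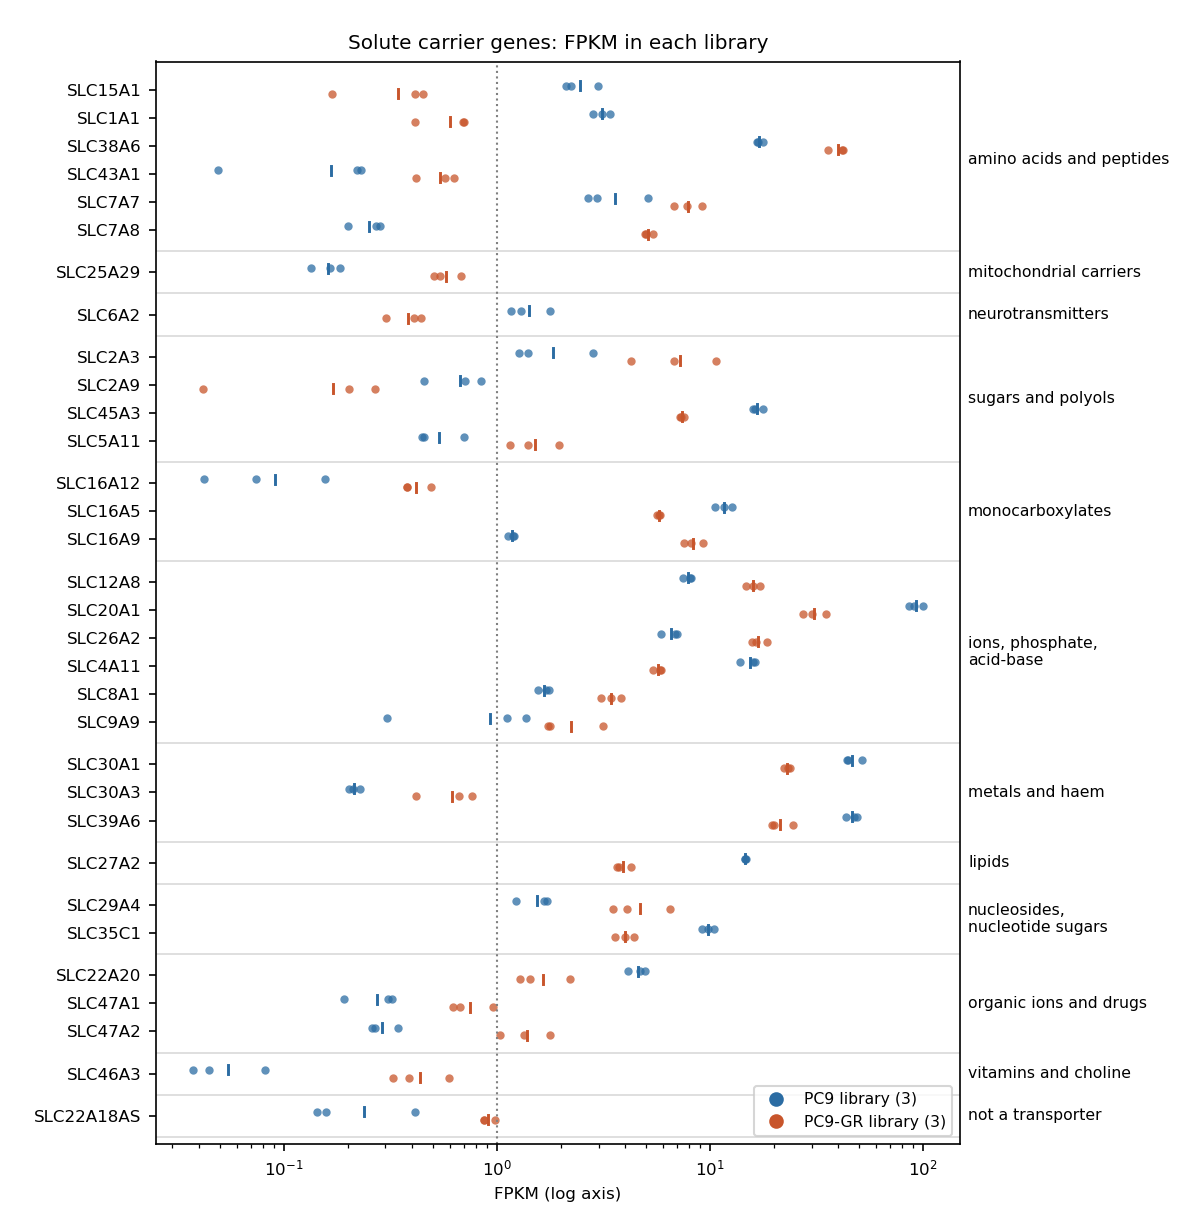
FPKM of 32 solute carrier genes (rows, grouped by substrate class) in the 3 PC9 and 3 PC9-GR libraries, on a log axis. Points are libraries, short vertical lines are group means, and the dotted line marks 1 FPKM. The points of the 2 groups do not overlap in any row.

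Libraries of a group resembled each other, with a lowest Pearson r of 0.977 on the log2(FPKM + 1) scale across tested genes. Of 10 epithelial markers 2 are in the table, CLDN1 and OVOL1, and both were called lower, with a summed level of 81.7 to 102.3 FPKM in the PC9 libraries and 24.6 to 34.2 FPKM in those of PC9-GR. Of 9 mesenchymal markers 6 are in the table and were called higher, with a summed level of 41.5 to 50.1 FPKM in the PC9 libraries and 496.5 to 570.2 FPKM in those of PC9-GR. Of 8 haematopoietic markers 5 are listed, 4 of them called higher (20.5 to 24.6 FPKM in PC9, and in PC9-GR 46.2 to 56.999 FPKM, summed). The remaining one, LYZ, went the other way and was below the filter, with means of 1.09 ± 0.459 FPKM for PC9 libraries against 0.142 ± 0.125 FPKM for PC9-GR libraries (SD, n = 3, limma adjusted p = 0.00139 without the filter). None of 4 endothelial markers is listed. The part of these shifts in the values of the carriers was not tested. In bulk RNA, fewer cells that express a carrier and less RNA per cell cannot be told apart.

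The most abundant members in PC9 were SLC20A1, SLC30A1 and SLC39A6, and these were lower in PC9-GR. SLC20A1, a sodium-phosphate cotransporter of the plasma membrane that also serves as a retrovirus receptor, measured 86.2, 90.9 and 100.5 FPKM in PC9 and 29.99, 27.3 and 35.2 FPKM in PC9-GR. The lowest PC9 library was above 86 FPKM and the highest PC9-GR library near 35 FPKM. It fell by 1.56 on the log2(FPKM + 1) scale (SE 0.117, limma adjusted p = 1.44e-06), and its mean was 3.00-fold lower. The zinc exporter SLC30A1, also called ZnT1, removes zinc from the cytosol. It measured 51.5, 43.9 and 44.6 FPKM in PC9 and 23.8, 22.4 and 23.2 FPKM in PC9-GR. It fell by 0.98 (SE 0.1001, limma adjusted p = 8.99e-06), 2.02-fold in the means. That call was lost when library totals were made equal (log2 difference -0.20, limma adjusted p = 0.112). Library totals here are the summed FPKM of the listed genes only. Under quantile normalization the call held with a log2 difference of -0.38 (limma adjusted p = 0.0107). SLC39A6, also called LIV-1 or ZIP6, moves zinc in the opposite direction, into the cytosol. Its values were 43.4, 47.6 and 49.1 FPKM in PC9 and 19.98, 19.5 and 24.4 FPKM in PC9-GR, and fell by 1.10 (SE 0.114, limma adjusted p = 9.65e-06). The exporter and the importer thus stood at nearly the same level in each line, 46.6 ± 4.19 and 46.7 ± 2.96 FPKM in PC9 and 23.1 ± 0.711 and 21.3 ± 2.73 FPKM in PC9-GR (mean ± SD, n = 3). SLC30A3, which loads zinc into synaptic vesicles, was far lower, at 0.2031, 0.2111 and 0.2285 FPKM in PC9 and 0.6676, 0.7636 and 0.4174 FPKM in PC9-GR. It was below the filter.

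SLC30A1 is a classical target of the zinc-sensing factor MTF1, which binds metal response elements, so the promoters of the zinc carriers that fell are shown with the core of that element in capitals. The cores searched were TGCACNC and TGCGCNC on both strands, in windows of 250 bases before to 50 bases after each start site from RefSeq on GRCh38.p14. The 250 bases before the start follow, 5′ to 3′ on the strand of the gene. SLC30A1 is on the minus strand at chr1:211579162-211579411 and SLC39A6 on the minus strand at chr18:36129341-36129590.
SLC30A1: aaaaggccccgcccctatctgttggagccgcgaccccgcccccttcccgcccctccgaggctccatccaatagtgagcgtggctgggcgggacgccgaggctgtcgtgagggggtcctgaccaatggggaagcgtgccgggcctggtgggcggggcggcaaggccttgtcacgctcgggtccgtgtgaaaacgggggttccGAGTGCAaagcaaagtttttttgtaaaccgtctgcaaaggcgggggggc
SLC39A6: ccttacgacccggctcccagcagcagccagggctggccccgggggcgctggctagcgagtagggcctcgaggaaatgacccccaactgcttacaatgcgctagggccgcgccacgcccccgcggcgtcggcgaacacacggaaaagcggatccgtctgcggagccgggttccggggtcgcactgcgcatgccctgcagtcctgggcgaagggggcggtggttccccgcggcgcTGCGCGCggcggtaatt
The SLC30A1 window held 2 matches, 1 of them in the 50 bases after the start, both on the opposite strand. That of SLC39A6 held 1, on the strand of the gene. The windows of SLC30A3, the zinc carrier with the higher mean in PC9-GR, held 2 matches and 1 match. No matches overlapped. A match occurred in 29.55% of all 35116 promoter windows and in 17 of the 38 windows (44.7%) of the 24 members that could be matched by symbol. By gene, 14 of 24 members had a match in any window (58.3%), against 33.4% of all 27305 gene symbols in the RefSeq table. The share by gene rises with the number of windows per gene, which was larger for the members. No share was computed for the listed genes as a set, so no enrichment is read from these values. The 14 members with a match were 10 of 15 higher and 4 of 9 lower members. A match describes letters in a window and not binding.

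Other carriers of ions and of acid and base moved in both directions. Of the 6 members of that class, SLC20A1 included, 4 were called higher and 2 lower, against 48.4% and 51.3% of the tested genes of the table. SLC4A11, a membrane carrier of the bicarbonate transporter family, measured 13.9, 16.3 and 15.9 FPKM in PC9 and 5.40, 5.80 and 5.89 FPKM in PC9-GR, and fell by 1.29 (SE 0.113, limma adjusted p = 3.7e-06). SLC26A2, the sulfate carrier needed for cartilage matrix, rose from 6.97, 5.91 and 6.88 FPKM to 16.5, 15.7 and 18.5 FPKM, a log2 difference of 1.24 (SE 0.117, limma adjusted p = 5.79e-06). SLC12A8, a member of the cation-chloride family, rose 2.02-fold in the means, from 7.92 ± 0.382 to 16.003 ± 1.23 FPKM. SLC8A1, the sodium-calcium exchanger NCX1, rose 2.06-fold to 3.44 ± 0.374 FPKM. In these 4 genes the groups were separated by more than the spread of either. SLC9A9, an endosomal sodium-proton exchanger, was the least certain of the tested members. It measured 1.11, 1.37 and 0.306 FPKM in PC9 and 3.16, 1.78 and 1.74 FPKM in PC9-GR, a log2 difference of 0.76 (SE 0.240, limma adjusted p = 0.0111), and the highest PC9 library came near the lower PC9-GR libraries. Its adjusted p by limma was 0.093 under quantile normalization and between 0.000639 and 0.0416 in the other alternatives, so the call was lost in that setting.

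Carriers of amino acids and peptides moved in both directions. Of 5 tested members 3 were called higher and 2 lower, against 48.4% and 51.3% of the tested genes of the table. The largest rise of any tested member on the log2 scale was that of SLC7A8, the light chain LAT2 of an exchanger of neutral amino acids. It measured 0.1996, 0.2817 and 0.2695 FPKM in PC9 and 5.43, 4.99 and 4.95 FPKM in PC9-GR. It was thus below 1 FPKM in each library of the parental line and tightly grouped near 5 FPKM in the resistant line. The mean ratio was 20.5, and the log2 difference was 2.29 (SE 0.116, 95% interval 2.03 to 2.55, limma adjusted p = 1.85e-07). SLC7A8 passed the filter only through PC9-GR, where it is high, so its p is no independent evidence. SLC7A7, the light chain y+LAT1 that exchanges cationic for neutral amino acids, lies on chromosome 14 at 23242430 to 23299029 in the table, and SLC7A8 follows at 23594503 to 23652883. The build of these table coordinates is not named. SLC7A7 measured 2.69, 5.14 and 2.96 FPKM in PC9 and 9.14, 7.79 and 6.82 FPKM in PC9-GR, a rise of 0.99 (SE 0.202, limma adjusted p = 0.000876), so 1 PC9 library stood nearer to the resistant line than the others did. Both light chains work bound to the heavy chain SLC3A2, which is not among the listed genes and was not analysed here. The other tested gene that rose, SLC38A6, belongs to the sodium-coupled neutral amino acid family. It was the only member above 10 FPKM in PC9 that was higher in PC9-GR, at 16.8, 17.8 and 16.6 FPKM against 41.5, 35.7 and 42.03 FPKM (log2 difference 1.17, SE 0.102, limma adjusted p = 3.57e-06). SLC43A1, the neutral amino acid carrier LAT3, was below the filter at 0.167 ± 0.102 and 0.539 ± 0.111 FPKM.

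The carriers of this class that fell take up acidic amino acids and small peptides. SLC1A1, the glutamate and cysteine carrier EAAT3, measured 3.40, 2.81 and 3.12 FPKM in PC9 and 0.4142, 0.7015 and 0.6922 FPKM in PC9-GR. It fell by 1.36 (SE 0.129, limma adjusted p = 5.75e-06) and 5.16-fold in the means. SLC15A1, the proton-coupled peptide carrier PEPT1, measured 2.98, 2.12 and 2.23 FPKM in PC9 and 0.1683, 0.4115 and 0.4508 FPKM in PC9-GR. Its log2(FPKM + 1) value also fell by 1.36 (SE 0.137, limma adjusted p = 8.37e-06), and its mean ratio, 7.11-fold lower, was the largest decrease among the 33 genes. In neither gene did a PC9-GR library reach 1 FPKM. SLC6A2, the noradrenaline transporter of the neurotransmitter family, was low in both lines. It measured 1.79, 1.17 and 1.30 FPKM in PC9 and 0.4416, 0.3021 and 0.4070 FPKM in PC9-GR, and fell by 0.80 (SE 0.117, limma adjusted p = 9.99e-05). SLC6A2 passed the filter only through PC9. SLC25A29, a mitochondrial carrier of basic amino acids, was below the filter at 0.161 ± 0.0251 and 0.575 ± 0.0894 FPKM.

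**Figure D2:**
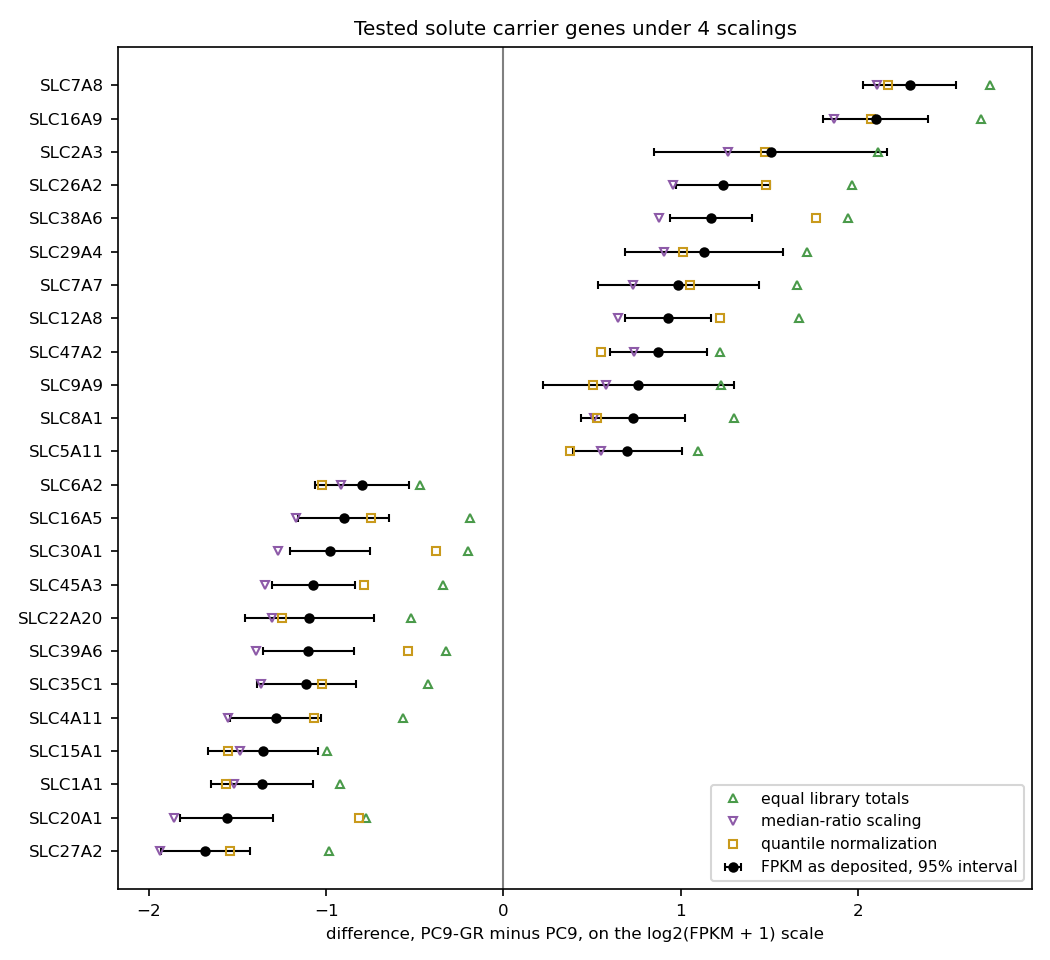
Difference between PC9-GR and PC9 on the log2(FPKM + 1) scale for 24 tested solute carrier genes, with the 95% interval of the limma fit on FPKM as deposited (filled) and the values under 3 other scalings (open). No value crosses 0, from SLC27A2 at -1.68 to SLC7A8 at 2.29, and equal library totals move every gene to the right.

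Carriers of sugars and polyols also split. SLC2A3, the high-affinity glucose transporter GLUT3, measured 2.83, 1.39 and 1.28 FPKM in PC9 and 4.28, 10.7 and 6.79 FPKM in PC9-GR. It rose by 1.51 (SE 0.293, limma adjusted p = 0.000622), but its level in PC9-GR ran over a more than 2-fold range and the SE was the largest among the tested members. SLC5A11, a sodium-coupled myo-inositol carrier, rose from 0.534 ± 0.145 to 1.51 ± 0.409 FPKM (log2 difference 0.70, limma adjusted p = 0.000649). No PC9 library of SLC5A11 reached 1 FPKM. Its call only narrowly held under quantile normalization (log2 difference 0.38, limma adjusted p = 0.0438). SLC45A3, known as prostein and placed in a family of putative sugar carriers, measured 17.7, 16.3 and 15.9 FPKM in PC9 and 7.24, 7.55 and 7.32 FPKM in PC9-GR, and fell by 1.07 (SE 0.104, limma adjusted p = 6.42e-06). SLC2A9 is GLUT9, which carries urate. It was below the filter, at 0.4554, 0.7100 and 0.8412 FPKM in PC9 and 0.2670, 0.2017 and 0.0416 FPKM in PC9-GR, and was the only one of the 8 untested members with a lower mean in PC9-GR.

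Carriers of the monocarboxylate family moved in both directions, and they differ in substrate. SLC16A9, called MCT9 and linked to carnitine, rose, measuring 1.13, 1.20 and 1.19 FPKM in PC9 and 8.17, 7.58 and 9.30 FPKM in PC9-GR (7.11-fold, log2 difference 2.10, SE 0.131, limma adjusted p = 5.82e-07). SLC16A12, a creatine carrier, was below the filter at 0.0909 ± 0.0588 and 0.416 ± 0.0656 FPKM. SLC16A5, called MCT6, measured 11.6, 12.7 and 10.6 FPKM in PC9 and 5.67, 5.75 and 5.80 FPKM in PC9-GR, and fell by 0.90 (SE 0.114, limma adjusted p = 3.62e-05), a call that was lost with equal library totals (log2 difference -0.19, limma adjusted p = 0.158). The lactate carriers SLC16A1 and SLC16A3 are not among the listed genes and were not analysed here.

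The fatty acid carrier SLC27A2, also called FATP2 and active as a very long-chain acyl-CoA synthetase, had the largest fall of the tested members on the log2 scale. It measured 14.6, 14.6 and 14.8 FPKM in PC9 and 3.75, 4.25 and 3.68 FPKM in PC9-GR, and fell by 1.68 (SE 0.111, 95% interval -1.93 to -1.43, limma adjusted p = 7.72e-07), and 3.77-fold in the means. SLC35C1, which brings GDP-fucose into the Golgi for fucosylation, measured 9.15, 10.5 and 9.76 FPKM in PC9 and 4.41, 3.997 and 3.59 FPKM in PC9-GR, and fell by 1.11 (SE 0.124, limma adjusted p = 1.56e-05). SLC29A4 belongs to the equilibrative nucleoside family but carries monoamines and is called PMAT. It rose from 1.72, 1.23 and 1.67 FPKM to 4.06, 6.48 and 3.50 FPKM (log2 difference 1.13, SE 0.198, limma adjusted p = 0.000319), with 1 PC9-GR library well above the others.

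The extruders of organic cations, SLC47A1 and SLC47A2, known as MATE1 and MATE2, export drugs in the kidney. SLC47A2 rose from 0.2667, 0.3424 and 0.2601 FPKM to 1.04, 1.77 and 1.34 FPKM (log2 difference 0.87, SE 0.122, limma adjusted p = 7.02e-05). It passed the filter only through PC9-GR. SLC47A1 was below the filter at 0.274 ± 0.0715 and 0.7499 ± 0.179 FPKM. The genes lie next to each other in the list of chromosome 17, with 80364 bp between their loci in the table. The pseudogene SLC22A20 fell by 1.09 (SE 0.162, limma adjusted p = 0.000107), from 4.59 ± 0.443 to 1.64 ± 0.498 FPKM. SLC46A3, a lysosomal carrier, had the lowest mean of all members in PC9, at 0.0373, 0.0816 and 0.0446 FPKM, and measured 0.3244, 0.5948 and 0.3858 FPKM in PC9-GR. SLC22A18AS measured 0.239 ± 0.152 and 0.910 ± 0.0646 FPKM. The strand setting of the authors' counting is not given in the sources used here, so reads of SLC22A18AS and of SLC22A18 may not have been told apart.

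The 8 members below the filter were SLC2A9, SLC16A12, SLC22A18AS, SLC25A29, SLC30A3, SLC43A1, SLC46A3 and SLC47A1. Each gave p = 0.1 in a two-sided exact permutation test, and no lower p can be had from 3 libraries against 3. Without the filter limma called each of the 8, with adjusted p from 0.00071 to 0.00414, and 97.1% of the listed genes were called in that setting. SLC46A3 was 7.98-fold higher in the means and SLC16A12 was 4.57-fold higher, but with PC9 levels under 0.1 FPKM the size of both is uncertain.

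With equal library totals the log2 difference of the median tested gene moved by 0.61, and with median-ratio scaling it moved by -0.23. These totals are sums over the 1705 listed genes, selected as changed, and not over all genes. They were 28346, 29794 and 30541 FPKM in PC9 and 16705, 17005 and 17114 FPKM in PC9-GR. Making them equal is therefore no correction for sequencing depth, and the median-ratio factors also come from listed genes only. Under equal totals SLC30A1 and SLC16A5 lost their calls, against a highest limma adjusted p of 0.0178 for the other 10 lower members in that setting. Lower calls thus went from 12 to 10 among the members, and from 619 to 433 in the whole table. Such a loss is therefore not particular to these genes. SLC20A1 moved to -0.77 and SLC39A6 to -0.32 under equal totals and both remained called. The direction of each of the 25 tested members was the same in every scaling run.

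The summed level of the 33 members was 307.4, 309.7 and 315.7 FPKM in PC9 and 223.3, 220.1 and 233.5 FPKM in PC9-GR as deposited. That order flips when the totals of the listed genes are made equal, at 240.3 to 252.1 in PC9 and 300.9 to 317.3 in PC9-GR. Median-ratio scaling kept the deposited order (332.9 to 341.1 and 188.1 to 210.3). SLC20A1, SLC30A1 and SLC39A6 alone made up 58.9% to 61.5% of that sum in PC9 and 31.4% to 35.4% in PC9-GR. Without these genes, picked because they are the most abundant in PC9, the sum lay between 121.5 and 127.3 FPKM in PC9 and between 149.5 and 150.9 FPKM in PC9-GR as deposited. With equal totals it lay between 92.5 and 103.6 in PC9 and between 204.8 and 208.1 in PC9-GR, and with median-ratio scaling the lines overlapped, at 128.1 to 140.2 in PC9 and 124.98 to 140.8 in PC9-GR. SLC38A6 became the most abundant member in PC9-GR, at 39.7 ± 3.48 FPKM, ahead of SLC20A1 at 30.8 ± 4.01 FPKM.

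**Figure D3:**
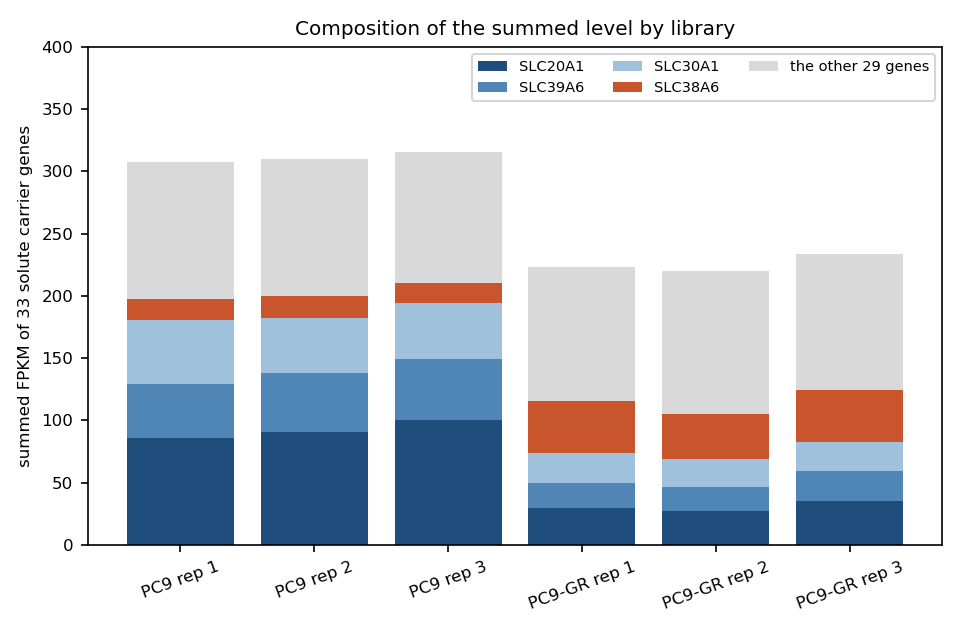
Summed FPKM of the 33 solute carrier genes in each library, stacked by gene. The blue segments are SLC20A1, SLC39A6 and SLC30A1, the orange segment is SLC38A6, and the grey segment is the other 29 genes. The total lies between 307.4 and 315.7 FPKM in PC9 and between 220.1 and 233.5 FPKM in PC9-GR as deposited. The order of the lines flips with equal totals of the listed genes.

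Abundant carriers in PC9 were mostly lower in PC9-GR and scarce ones mostly higher, as in the table as a whole, with FPKM as deposited. The PC9 level is also the denominator of the ratio, and only genes selected as changed are listed. This pattern is therefore partly built in. Of 8 members with a PC9 mean of at least 10 FPKM, 7 were lower (87.5%), against 85.1% of 369 such listed genes. Of 12 members between 1 and 10 FPKM, 5 were lower (41.7%), against 53.5% of 632 listed genes. Of 13 members under 1 FPKM in PC9, 1 was lower (7.69%), against 25.9% of 704 listed genes. A mean ratio of at least 4 in either direction was found for 8 of 33 members (24.2%), against 30.97% of the listed genes. Among them were SLC7A8, SLC46A3, SLC16A9, SLC47A2 and SLC16A12, higher, and SLC15A1 and SLC1A1, lower.

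**Figure D4:**
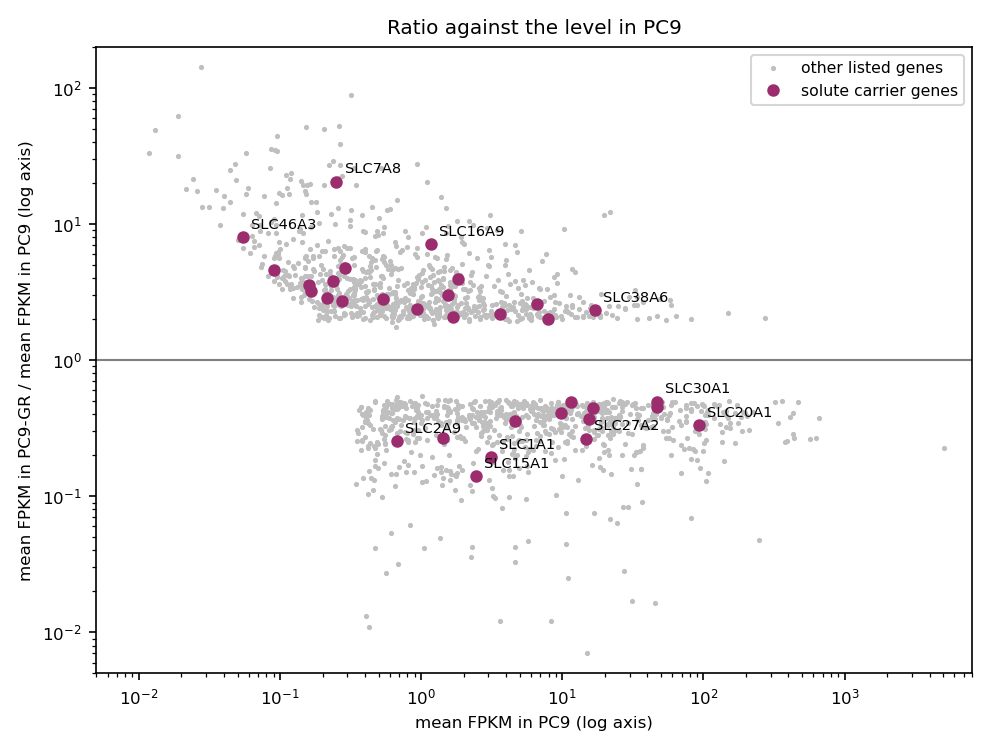
Ratio of mean FPKM in PC9-GR to PC9 against the mean FPKM in PC9, both on log axes, for solute carrier genes (large points) and the other listed genes (grey). Only genes selected as changed are listed, which leaves a band around a ratio of 1 empty, and 51 listed genes at the floor in a group or outside the axes are not drawn. Members above 10 FPKM in PC9 sit below the line, except SLC38A6.

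On chromosome 14 the carriers went the other way from most listed genes. The authors' deposited table gives 74 of its 93 listed genes a lower ratio (79.6%), while the 4 carriers there, SLC7A7, SLC7A8, SLC38A6 and SLC25A29, are higher. The first 3 lie in the part before SMOC1, where 14 of 16 listed genes are higher in the authors' deposited table. That count includes these 3 carriers, and FOXA1 and BMP4 are the exceptions. MMP14 lies between SLC7A7 and SLC7A8 and has a log2 ratio of 1.28 in the authors' deposited table. SLC25A29 lies at the other end, and it is the only higher gene among the 32 listed from TC2N onward. Both bounds, SMOC1 and TC2N, lie where the sign of these same ratios changes, so both counts follow partly from the bounds. Directly before TC2N, DIO2, FLRT2, PTPN21 and TTC7B are higher, with log2 ratios of 3.20, 1.08, 1.02 and 1.31. The neighbours of SLC25A29 in the list, BDKRB2 and RP11-796G6.2, have log2 ratios of -3.00 and -3.28 in the authors' deposited table. The locus of SLC25A29 spans 99142 bp in the table, against 15437 bp for the gene in GENCODE 29, and may hold reads of other transcripts.

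**Figure D5:**
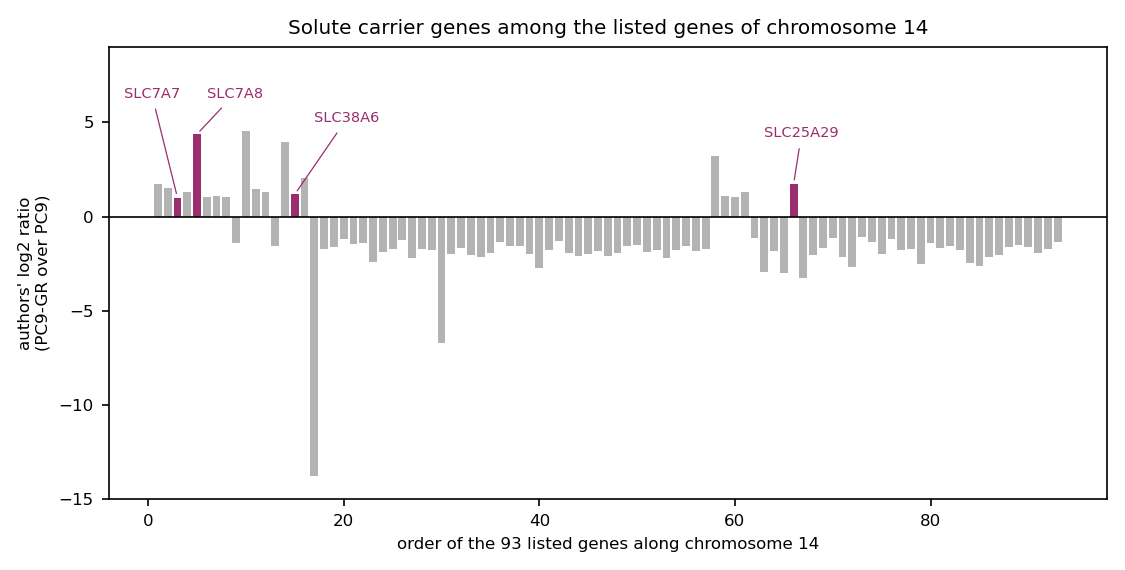
The authors' log2 ratio of PC9-GR to PC9 for the 93 listed genes of chromosome 14 in their order along it, with the 4 solute carrier genes coloured. SLC7A7, SLC7A8 and SLC38A6 stand in a stretch of mostly higher genes, and SLC25A29 stands alone among lower ones.

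SLC39A6 is the only carrier on chromosome 18, where 98 of 108 listed genes have a lower ratio in the authors' deposited table (90.7%). Its neighbours there, RPRD1A and ELP2, have log2 ratios of -1.36 and -1.27 in the authors' deposited table, close to the -1.17 of SLC39A6 itself. SLC16A9 and SLC16A12 are on chromosome 10, where 80.4% of 51 listed genes are higher. SLC12A8 and SLC9A9 on chromosome 3 were higher where 64.8% of 88 listed genes are lower, and SLC30A1 and SLC45A3 on chromosome 1 were lower where 64.3% of 168 listed genes are higher. The part of neighbouring genes in these values was not tested. No member shares its locus with another listed gene, but for 9 of the 33 the locus in the table is over 1.5 times the length of the gene in GENCODE 29. These are SLC1A1, SLC8A1, SLC12A8, SLC22A18AS, SLC25A29, SLC26A2, SLC27A2, SLC29A4 and SLC38A6. The locus of SLC27A2 spans 378159 bp against 54200 bp for the gene, and that of SLC38A6 348993 bp against 102620 bp. Values of any of the 9 may thus hold reads of other transcripts.

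Few partners and regulators of carriers are in the table. Of 33 symbols for partners (sodium pump subunits, FXYD proteins, chaperones, carbonic anhydrases and first enzymes), CA2, CA12 and TMEM27 are listed, with 1 called higher and 1 lower. Carbonic anhydrase CA2, which works in the cytosol beside bicarbonate carriers, fell from 42.3 ± 3.77 to 13.6 ± 1.35 FPKM, and the membrane enzyme CA12 rose from 5.29 ± 1.07 to 20.6 ± 1.92 FPKM. Collectrin (TMEM27), a chaperone of amino acid carriers, was below the filter at 0.886 ± 0.236 and 0.423 ± 0.0534 FPKM. Of 28 regulators 4 are listed, 2 called higher and 2 lower. TXNIP, which promotes the removal of glucose transporters from the surface, fell from 14.4, 10.7 and 11.96 FPKM to 2.76, 5.74 and 3.60 FPKM (limma adjusted p = 9.34e-05). NEDD4L, a ubiquitin ligase for membrane channels and carriers, fell from 101.9 ± 6.299 to 32.01 ± 4.74 FPKM and lies on chromosome 18. The secreted hormones of calcium and phosphate balance STC1 and STC2 rose 3.00-fold and 2.55-fold. Of 11 SLCO organic anion transporters, only SLCO2B1 is listed. It was at the floor of 0.001 FPKM in 2 PC9 libraries and at 0.0804 FPKM in the other, and measured 2.22, 6.6045 and 2.99 FPKM in PC9-GR (limma adjusted p = 2.82e-05).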

How the data were processed

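The deposited table gives FPKM per library and per group, and the authors' comparison of the groups as a ratio, a log2 ratio, a p-value and a q-value, per the file headers. TopHat and Cufflinks are named in the submitters' processing notes. Not given in the sources used here are versions, genome build, annotation and strand setting. Libraries were made from total RNA with a strand-specific Agilent SureSelect kit, per the labels' protocols. The lowest deposited FPKM of a library is 0.001.

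From the deposited FPKM, log2(FPKM + 1) was fitted with limma 3.58.1 in R 4.3.3 (group as the only term, variance trend, two-sided, Benjamini-Hochberg over the 1207 genes that reached 1 FPKM in 3 or more of the 6 libraries, called at adjusted p under 0.05). The step was tested on simulated data. This log2 difference understates changes of low genes; folds are ratios of mean FPKM. Members below the filter had an exact permutation test (scipy 1.17.1, Python 3.11.15). Alternatives varied the pseudocount, filter, scaling, variance trend, replicate term and libraries. Every scaling was computed from listed genes only. Every member was to be named, and 1 is counted but not reported here. Members, substrate classes and gene lists were chosen with earlier results of these data known. GENCODE 29 gave gene lengths by identifier for all 33 members, and RefSeq promoters matched 24 by symbol.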

Additional observations from a re-analysis of the deposited data

How the results depend on the processing

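With a filter at 5 FPKM, 13 members were tested and all called, 5 higher and 8 lower, and 627 genes of the table were called, 234 higher and 393 lower; fewer genes are tested in that setting. Without a filter, 20 members were called higher and 13 lower. The share of calls that were higher was, for the table, 48.5% as deposited, 57.5% with equal library totals and 37.3% with the filter at 5 FPKM, and 52%, 56.5% and 38.5% for the members. Over the 14 alternatives no tested member changed direction. Calls were lost for SLC30A1 and SLC16A5 with equal totals and for SLC9A9 under quantile normalization. Leaving out each library in turn kept 13 members higher and 12 lower, with 1192 to 1198 genes of the table called. Same-numbered libraries did not deviate together (Pearson r of deviations -0.0977, 0.0822 and 0.164), so the numbers were not taken as pairs. With the replicate block 13 members were called higher and 12 lower, and 586 and 619 genes of the table. Depth is unknown, which leaves the precision of members under 1 FPKM unstated.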

Other observations

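The metallothionein gene MT1E, which encodes a zinc-binding protein and lies near SLC6A2 in the list of chromosome 16, was looked up after its value had been seen, because SLC30A1 and SLC39A6 carry zinc. MT1E measured 0.7431, 0.7209 and 0.9534 FPKM in the 3 PC9 libraries and was listed at the floor of 0.001 FPKM in each PC9-GR library. No other MT1 or MT2 gene is among the listed genes.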
